A study of Mus musculus with 4 samples.

Results

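SR proteins and hnRNPs are the RNA-binding proteins that choose exons. The 38 genes described here were taken by their symbols from the 24421 gene symbols of the count files: every Srsf gene followed by a number and every gene whose symbol starts with Hnrnp, plus Tra2a, Tra2b, Srrm1, Srrm2, Pcbp1, Pcbp2 and Syncrip. They comprised 15 SR proteins and 23 hnRNPs, with the Tra2 and Srrm genes counted as SR proteins. All 38 were among the 19891 genes that were counted at least once. RNA was measured in R1, a mouse embryonic stem cell (ESC) line, in 2 states with 2 biological replicates each, by Illumina TruSeq paired-end sequencing. Undiff is the starting state, described in the methods as ESCs kept with leukaemia inhibitory factor and in the labels as embryoid bodies, which are floating aggregates of the cells. Day4 is embryoid bodies grown for 4 days without leukaemia inhibitory factor and then for 4 days with retinoic acid (RA), at a dose given as 2 µM in the methods and 2 mM in the labels. The states thus differed in culture, age and factor withdrawal as well as in RA, and no Day4 library without RA was analysed here. All libraries come from a single line, and per the methods the replicates were grown and treated separately.

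Most SR proteins carry an RNA recognition domain and a tail rich in arginine and serine. They bind enhancer sequences in exons and help the spliceosome to use nearby splice sites, and kinases that phosphorylate the tail control their place in the nucleus and their activity. The hnRNPs, a broad group that coats nascent RNA, often act in the opposite direction by blocking splice sites, and many also take part in export, stability and translation. Many genes of both groups limit their own level by splicing in an exon with a premature stop codon, after which nonsense-mediated decay removes the RNA. In the GENCODE annotation, 24 of the 38 genes had such a decay transcript, 13 of the 15 SR proteins and 11 of the 23 hnRNPs. Counts per gene do not separate these transcripts from the coding ones.

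The marker genes of the starting state separated the libraries as labelled. All 10 pluripotency markers fell, from 0.480% and 0.483% of the counts on genes in the Undiff libraries to 0.00313% and 0.00250% in the Day4 libraries. All 7 endoderm markers rose, as did 7 of 8 fibroblast markers, 4 of 7 mesoderm markers and 3 of 8 neural progenitor markers, whereas 1, 2 and 4 markers of the last 3 lists fell. Markers of several cell kinds thus differed between the states, and a lower value can reflect fewer cells of a type or less RNA of the gene per cell, which cannot be told apart in these samples. The libraries held 32099074 to 47730944 counts on genes. Among uniquely aligned fragments, 12.1% and 13.2% lay on no gene in Undiff, against 7.50% and 7.74% in Day4, and the part of this difference in the results below was not tested.

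Most members changed between the states, and most of the changes were small. With edgeR's quasi-likelihood test and Benjamini-Hochberg adjustment, 33 of the 38 members passed an adjusted p of 0.05, 13 higher and 20 lower in Day4. Of all genes tested, 74.9% passed, 37.8% higher and 37.1% lower. Of the 7287 abundant genes, those averaging 1000 or more normalized counts, as 34 of the members did, 91.1% passed, 46.3% higher and 44.8% lower. The share of members that changed was therefore close to that of similarly abundant genes. Only 3 members, 2 higher and 1 lower, were differentially expressed genes (DEGs), which also need a log2 fold change of 1 or more in size and an average of 5 or more normalized counts. Of all genes, 42.8% were DEGs, 22.2% higher and 20.6% lower, and of the abundant genes 36.3%, 20.3% higher and 16.0% lower. The median size of the log2 fold change was 0.44 for the members, 1.25 for all genes and 0.72 for the abundant genes. In 35 of the 38 members the Undiff and Day4 libraries did not overlap, against 85.4% of all genes and 95.6% of the abundant genes.

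**Figure D1:**
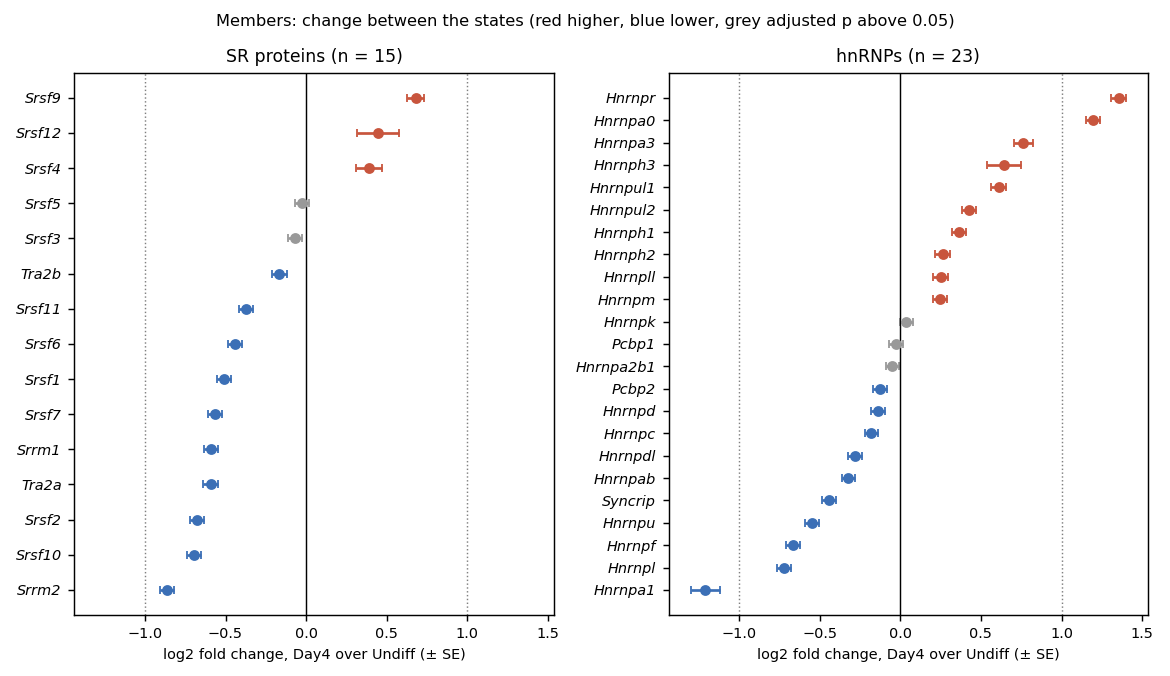
The log2 fold change of normalized counts, Day4 over Undiff, for the 15 SR proteins (left) and the 23 hnRNPs (right), with the standard error as bars and dotted lines at a log2 fold change of 1 in either direction. The bars follow the abundance of a gene and do not show the spread between its own replicates. The SR proteins reached from -0.86 to 0.68, all inside the dotted lines, and the hnRNPs from -1.21 to 1.35, with Hnrnpr, Hnrnpa0 and Hnrnpa1 outside them.

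Most SR proteins fell, while the hnRNPs moved to both sides. Among the SR proteins, 3 members rose, 10 fell and 2 did not pass the test, with a median log2 fold change of -0.44. Of the 11 Srsf genes alone, 3 rose, 6 fell and 2 did not pass, with a median of -0.37. The 4 Tra2 and Srrm genes all fell, with a median of -0.59. Among the hnRNPs, 10 rose, 10 fell and 3 did not pass, with a median of -0.03. For comparison, the median was -0.03 over all genes tested and 0.02 over the abundant genes. The SR proteins together held 0.534% and 0.566% of the counts on genes in the Undiff libraries and 0.419% and 0.421% in the Day4 libraries (0.550% ± 0.0229 and 0.420% ± 0.00149, SD, n = 2 each). Day4 was below Undiff in both libraries, and the exact two-sided permutation p was 0.333, the smallest that 2 against 2 libraries can give. The Srsf genes alone held 0.364% and 0.390% in Undiff and 0.305% and 0.302% in Day4. The hnRNPs held 0.977% and 1.03% in Undiff and 0.992% and 1.00% in Day4, values that overlap (exact two-sided permutation p = 1). Read against all uniquely aligned fragments instead, the SR proteins held 0.459% and 0.481% in Undiff and 0.379% and 0.380% in Day4. On that scale the hnRNPs were at 0.841% and 0.875% in Undiff and at 0.899% and 0.906% in Day4, so that the direction of their small difference depends on the denominator.

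Of the SR proteins, the most abundant per length in Undiff was Srsf2 (SC35), a component of nuclear speckles that activates exons. Srsf2 had 20664 and 22647 normalized counts in the Undiff libraries and 13723 and 13343 in the Day4 libraries. It fell by 0.68 on the log2 scale (SE 0.04, adjusted p = 8.4e-13, edgeR), with no overlap between the states. Standard errors (SE) here and below follow the abundance of a gene, not the spread between its own replicates. In reads per kilobase of its principal transcript, scaled to the counts on genes of the library (RPKM), Srsf2 went from 350 ± 21.5 in Undiff to 229 ± 5.13 in Day4 (SD, n = 2), where Srsf3 stood at 227 ± 3.63, within the spread of Srsf2. The counts of Srsf2 are less certain because 25.3% of its exonic bases overlap Mettl23 and Mfsd11 on the opposite strand. For the counting of genes, the methods name a strand-specific setting only for another platform (Direct RNA). They state no setting for the TruSeq libraries.

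Srsf3, the smallest SR protein, which also takes part in mRNA export, had 22250 and 23351 normalized counts in Undiff and 21960 and 21546 in Day4. Both Day4 values were slightly below both Undiff values, by -0.07 on the log2 scale (SE 0.04), and the difference did not pass (adjusted p = 0.066, edgeR). Srsf5, a relative of Srsf4 and Srsf6, had 10617 and 11794 normalized counts in Undiff and 11072 and 10951 in Day4, which overlap (log2 fold change -0.02, SE 0.04, adjusted p = 0.30, edgeR). Without Undiff replicate 1, both passed as lower (-0.10 each). In the fit of all 4 libraries these were the only 2 SR proteins that did not pass, and they stood at 227 and 191 RPKM in Undiff, with Srsf7 between them at 202 RPKM. Srsf3 went from 10.9% and 10.7% of all SR protein counts in Undiff to 14.4% and 14.0% in Day4. Stretches of the length of a read that also occur in transcripts elsewhere made up 20.6% for Srsf3 and 13.7% for Srsf5. The levels of both against other genes are therefore less certain.

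Srsf1, the prototype of the family, had 26507 and 29001 normalized counts in Undiff and 19436 and 19519 in Day4, a fall of 0.51 on the log2 scale (adjusted p = 3.3e-10, edgeR). Srsf7, which shares export functions with Srsf3, fell by 0.56, Srsf6 fell by 0.44, and Srsf11 fell by 0.37 on the same scale. Srsf10, known as a splicing repressor when it loses its phosphates, had 11161 and 12097 normalized counts in Undiff and 7074 and 7291 in Day4, and fell by 0.69. No Day4 library reached an Undiff library in any of these 5 genes.

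The SR-like activators all fell. Srrm2, a large scaffold protein of nuclear speckles, changed most of the SR proteins in size. Its normalized counts were 32603 and 33672 in Undiff and 17410 and 19052 in Day4, a fall of 0.86 on the log2 scale (SE 0.04, adjusted p = 1.6e-14, edgeR). Srrm2 provided 16.0% and 15.5% of all SR protein counts in Undiff and 11.4% and 12.4% in Day4. Its partner Srrm1, a splicing coactivator, fell by 0.59, and so did Tra2a, a homologue of the fly sex-determination factor transformer 2. Tra2b, the other homologue, had 10319 and 10614 normalized counts in Undiff and 9273 and 9396 in Day4 and fell by only 0.16 on the log2 scale (adjusted p = 0.00041, edgeR).

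The 3 SR proteins that rose, Srsf9, Srsf4 and Srsf12, had the lowest levels per length of the family in Undiff, at 50.3, 7.05 and 1.47 RPKM. Srsf9, the closest relative of Srsf1, had 2181 and 2299 normalized counts in Undiff and 3793 and 3395 in Day4, a log2 fold change of 0.68 (SE 0.05, adjusted p = 2.0e-11, edgeR). Srsf4 had 588 and 632 normalized counts in Undiff and 799 and 800 in Day4, a log2 fold change of 0.39, but 43.0% of its exonic bases overlap the opposite-strand gene Gm12992. Srsf12, a repressor related to Srsf10, was the lowest of the family with 157 and 173 normalized counts in Undiff and 201 and 246 in Day4. Its log2 fold change was 0.45 (SE 0.13, adjusted p = 0.0076, edgeR), and the call was lost without Day4 replicate 2 (log2 fold change 0.25) and with DESeq2 (0.40).

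Among the hnRNPs, the largest rise was that of Hnrnpr, a paralogue of Syncrip that also has roles in neuronal mRNA transport. Hnrnpr (chr4:136310942-136359447 of mm10, plus strand) had 3569 and 3789 normalized counts in Undiff and 9276 and 9533 in Day4. Both Day4 libraries were far above both Undiff libraries, 2.56-fold on average (log2 fold change 1.35, SE 0.05, adjusted p = 2.3e-19, edgeR). Syncrip (hnRNP Q) moved the other way, with 13301 and 14922 normalized counts in Undiff and 10126 and 10584 in Day4, a fall of 0.45 on the log2 scale (SE 0.04, adjusted p = 5.6e-09, edgeR). Within a library, the ratio of Hnrnpr to Syncrip counts was 0.268 and 0.254 in Undiff and 0.916 and 0.901 in Day4, so that the 2 paralogues went from unequal to nearly equal counts.

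The A/B group, which holds the best-known splicing repressors, was the most divided. Hnrnpa0 (chr13:58125879-58128556, minus strand), a gene with 1 annotated transcript and no intron, had 5440 and 6185 normalized counts in Undiff and 13702 and 12895 in Day4. Its log2 fold change was 1.19 (SE 0.05, adjusted p = 4.4e-17, edgeR), the second largest rise. Hnrnpa1 (chr15:103240432-103246692, plus strand) had 704 and 899 normalized counts in Undiff and 290 and 391 in Day4. It fell by 1.21 on the log2 scale (SE 0.09, adjusted p = 1.4e-10, edgeR), from 10.9 ± 1.83 to 4.85 ± 1.00 RPKM (SD, n = 2), and was the only member called a DEG with a lower level.

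The counts of Hnrnpa1 may cover only part of its RNA, and how many fragments were missed was not measured. Of all stretches of the length of a read in its annotated transcripts, 42.9% also occur exactly in transcripts of 10 pseudogenes elsewhere, and fragments that align to several places were not counted. The same held for 26.4% of the stretches of Hnrnpa3, shared with 24 genes, and for 34.5% of those of Hnrnpf. Sharing of this kind reached 10% or more in 7 members and was absent in 22. The 7 also included Srsf3 (20.6%), Hnrnpk (14.3%), Srsf5 (13.7%) and Tra2b (12.5%). The levels of these genes against other genes are therefore uncertain, and the part of this in the changes was not tested. Hnrnpa3 had 1465 and 1780 normalized counts in Undiff and 2764 and 2733 in Day4, a log2 fold change of 0.76 (SE 0.06, adjusted p = 5.6e-11, edgeR).

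Hnrnpa2b1, the most abundant member per length, showed no detectable change. Its normalized counts were 44860 and 47869 in Undiff and 45408 and 44183 in Day4, which overlap (log2 fold change -0.05, SE 0.04, adjusted p = 0.16, edgeR). Without Undiff replicate 1 it passed as lower (-0.10). It stood at 733 ± 31.1 RPKM in Undiff and 742 ± 16.2 in Day4 (SD, n = 2), above each other member. Hnrnpab, a close relative of Hnrnpd, was second in Undiff with 474 ± 18.9 RPKM and had 41733 and 44372 normalized counts in Undiff and 34114 and 34691 in Day4. Hnrnpab fell by 0.32 on the log2 scale (SE 0.04, adjusted p = 8.2e-07, edgeR), with 29.1% of its exonic bases overlapping Phykpl on the opposite strand. Hnrnpd (AUF1), which binds AU-rich elements of unstable mRNAs, fell by 0.14 and its relative Hnrnpdl fell by 0.28 on the log2 scale, and the call of Hnrnpd was lost without Undiff replicate 2 (-0.06) or without Day4 replicate 1 (-0.12).

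**Figure D2:**
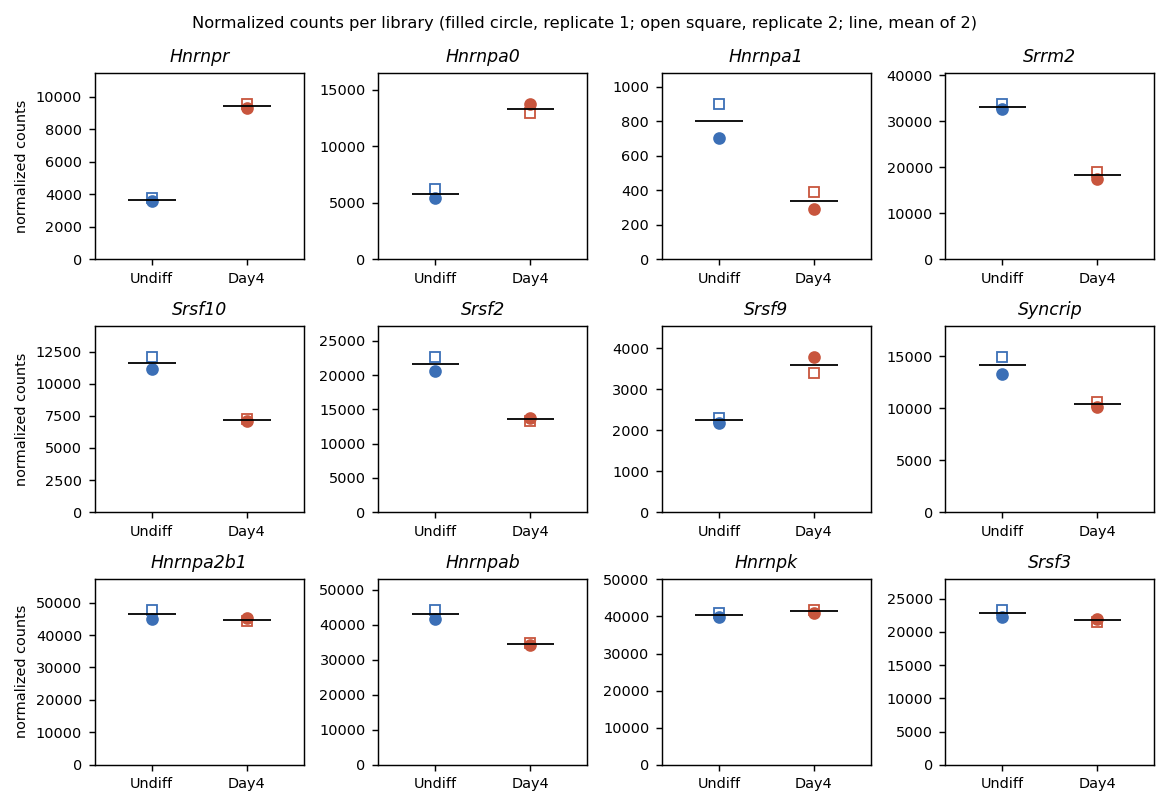
Normalized counts per library for 12 members, on linear axes that start at 0 and differ between panels, with Undiff in blue, Day4 in red, replicate 1 as filled circles, replicate 2 as open squares and the mean of 2 libraries as a line. Hnrnpr, Hnrnpa0 and Srsf9 lie higher in both Day4 libraries, Hnrnpa1, Srrm2, Srsf10, Srsf2, Syncrip and Hnrnpab lie lower, and Hnrnpa2b1, Hnrnpk and Srsf3 differ little between the states.

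The KH-domain proteins bind cytidine-rich RNA, and 2 of the 3, Hnrnpk and Pcbp1, did not pass the test. Hnrnpk followed Hnrnpab per length in Undiff, with 394 ± 5.18 RPKM (SD, n = 2). Its normalized counts were 39952 and 40903 in Undiff and 41037 and 41875 in Day4, a log2 fold change of 0.04 (SE 0.04). In the fit after filtering of low counts, which gave the adjusted p of 0.93 (edgeR), the log2 fold change was 0.005. Pcbp1, a gene with 1 annotated transcript and no intron, had 11502 and 12242 normalized counts in Undiff and 11616 and 11679 in Day4, which overlap (log2 fold change -0.03, adjusted p = 0.26, edgeR). Pcbp2 fell by 0.13, with 30.2% of its exonic bases overlapping Map3k12, and its call was lost without Day4 replicate 1 (-0.10).

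The H/F group binds runs of guanosine near splice sites and was split between its members. Hnrnph1 had 21055 and 24742 normalized counts in Undiff and 28879 and 29999 in Day4, a log2 fold change of 0.36 (SE 0.04, adjusted p = 1.4e-05, edgeR). With DESeq2 and the authors' settings, its log2 fold change was 0.32 and the adjusted p was 0.011. Hnrnph2 and Hnrnph3 also rose, with log2 fold changes of 0.26 and 0.64. Hnrnpf went the other way, with 17291 and 16702 normalized counts in Undiff and 10724 and 10654 in Day4, a fall of 0.67 on the log2 scale (SE 0.04, adjusted p = 1.9e-13, edgeR). The ratio of Hnrnph1 to Hnrnpf counts rose from 1.22 and 1.48 in the Undiff libraries to 2.69 and 2.82 in the Day4 libraries.

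Hnrnpl, which binds CA repeats, had 24469 and 23897 normalized counts in Undiff and 14345 and 14910 in Day4, and fell by 0.73 on the log2 scale (SE 0.04, adjusted p = 9.1e-14, edgeR). Its paralogue Hnrnpll, known for its role in alternative splicing in T cells, had 4019 and 4037 normalized counts in Undiff and 4683 and 4885 in Day4, a log2 fold change of 0.25 (adjusted p = 0.00017, edgeR). Hnrnpu (SAF-A), which binds chromatin as well as RNA, had 39694 and 45203 normalized counts in Undiff and 28416 and 29556 in Day4 and fell by 0.55 on the log2 scale. The related Hnrnpul1 and Hnrnpul2 rose, with log2 fold changes of 0.61 and 0.42. Hnrnpc, which binds uridine tracts, fell by 0.18 on the log2 scale, and Hnrnpm, a splicing regulator, had a log2 fold change of 0.25, with 14.7% of its exonic bases overlapping March2.

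Ratios between related members do not depend on the scaling between libraries, and 18 pairs of relatives were compared. In all 18 pairs the Undiff and Day4 libraries did not overlap, as was the case for the levels of 85.4% of all single genes and 95.6% of the abundant ones, so that the count says nothing particular about relatives. The share over other pairs of genes was not computed. The exact two-sided permutation p was 0.333 for each, raw and adjusted over the pairs, since 2 against 2 libraries allow no smaller value. In 7 pairs the log2 ratio differed by at least 1 between the states, and in 3 by less than 0.2. The widest shifts were those of Hnrnpa1 to Hnrnpa3 (-2.01), Hnrnpr to Syncrip (1.80) and Hnrnpa1 to Hnrnpa2b1 (-1.19). Srsf1 to Srsf9 shifted by -1.19, from count ratios of 12.2 and 12.6 to 5.12 and 5.75. Hnrnpu to Hnrnpul1 (-1.16), Srsf10 to Srsf12 (-1.12) and Hnrnph1 to Hnrnpf (1.04) were the others past 1. The smallest shifts were those of Pcbp1 to Pcbp2 (0.10), Hnrnph1 to Hnrnph2 (0.10) and Hnrnpd to Hnrnpdl (0.15). In 7 pairs, among them Srsf1 and Srsf9, Srsf6 and Srsf4, Syncrip and Hnrnpr, and Hnrnpl and Hnrnpll, the member with more counts in Undiff fell and its less counted relative rose. The reverse was seen for Hnrnpa3 and Hnrnpa1 and for Hnrnph1 and Hnrnpf, where the member with more counts rose and the other fell. Of the read-length stretches of Hnrnpa1, Hnrnpa3 and Hnrnpf, 42.9%, 26.4% and 34.5% also occur elsewhere. Which member of these pairs had more RNA is therefore uncertain. The part of this sharing in the shifts of their ratios was not tested. Some members belong to several pairs, so the pairs are not independent. How often other pairs of genes shift as far or move in opposite directions was not computed, so these counts show no trait particular to relatives.

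**Figure D3:**
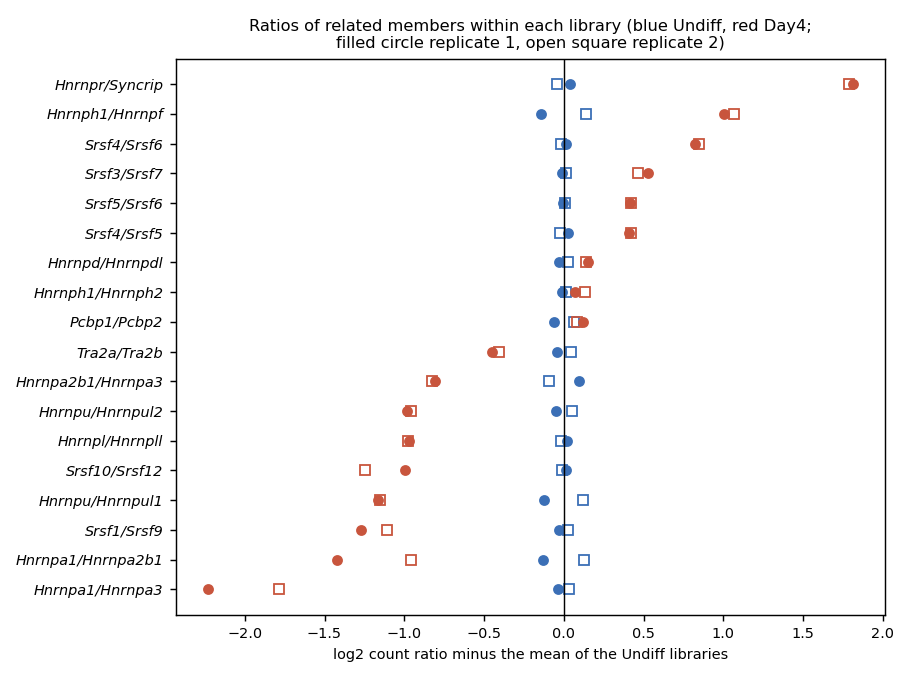
The log2 ratio of the counts of 2 related members in each library, minus the mean of the Undiff libraries, for 18 pairs, with Undiff in blue, Day4 in red, replicate 1 as filled circles and replicate 2 as open squares. The red points reach from about the blue ones for Pcbp1/Pcbp2 to a mean of -2.01 for Hnrnpa1/Hnrnpa3 and 1.80 for Hnrnpr/Syncrip. The counts of Hnrnpa1 and Hnrnpa3 may cover only part of their RNA.

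Genes that act with these proteins were described from lists. As a background, 37.8% of all genes tested rose and 37.1% fell. Of the abundant genes, 46.3% rose, 44.8% fell and 36.3% were DEGs. Of 12 kinases and importers of SR proteins, 4 rose and 8 fell, with a median log2 fold change of -0.15. Srpk1, the main cytoplasmic kinase of the SR tail, had 7749 and 7826 normalized counts in Undiff and 2930 and 2876 in Day4 and fell by 1.42 on the log2 scale (SE 0.05, adjusted p = 1.1e-20, edgeR). Srpk3, a muscle-enriched relative, rose from a far lower level, 8.34 and 4.79 to 18.8 and 16.9 normalized counts (log2 fold change 1.39, SE 0.54, adjusted p = 0.0081, edgeR). Of 19 SR-related proteins, 7 rose, 5 fell and 7 did not pass, with a median of -0.01, and the only DEG was Rsrc1 (log2 fold change 1.08, SE 0.06, adjusted p = 5.0e-15, edgeR).

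Of 13 hnRNP proteins that carry other names, 8 rose, 4 fell and 1 did not pass, with a median of 0.18. The 3 DEGs among them all rose. Ptbp2, the neural paralogue of the repressor Ptbp1, had 1587 and 1567 normalized counts in Undiff and 4311 and 4596 in Day4 (adjusted p = 1.8e-19, edgeR), whereas Ptbp1 had 18562 and 19230 in Undiff and 19293 and 20012 in Day4 (0.06, adjusted p = 0.63). Rbmx (hnRNP G) had 587 and 537 normalized counts in Undiff and 1653 and 1624 in Day4 (log2 fold change 1.54, SE 0.07, adjusted p = 2.4e-17, edgeR). Ralyl was at 3.13 and 2.39 normalized counts in Undiff and 24.0 and 15.4 in Day4 (log2 fold change 2.73, SE 0.65).

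The core machinery and the decay pathway fell more often than they rose, whereas 46.3% of the abundant genes rose and 44.8% fell. Of 33 genes of the spliceosomal snRNPs and core factors, 6 rose, 24 fell and 3 did not pass, with a median of -0.28 and Eftud2, a GTPase of the U5 snRNP, as the only DEG (fall of 1.12 on the log2 scale, SE 0.04, adjusted p = 7.2e-18, edgeR). Of 10 genes of nonsense-mediated decay, 2 rose, 7 fell and 1 did not pass, with a median of -0.49 and no DEG. Genes of proliferation also fell more often than they rose. Of 12 such genes, 11 fell and 6 of these were DEGs, with a median log2 fold change of -1.02 and a summed level of 0.534% to 0.548% of the counts on genes in Undiff and 0.263% to 0.274% in Day4. The part of proliferation in the changes of the SR proteins and of the core machinery was not tested.

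**Figure D4:**
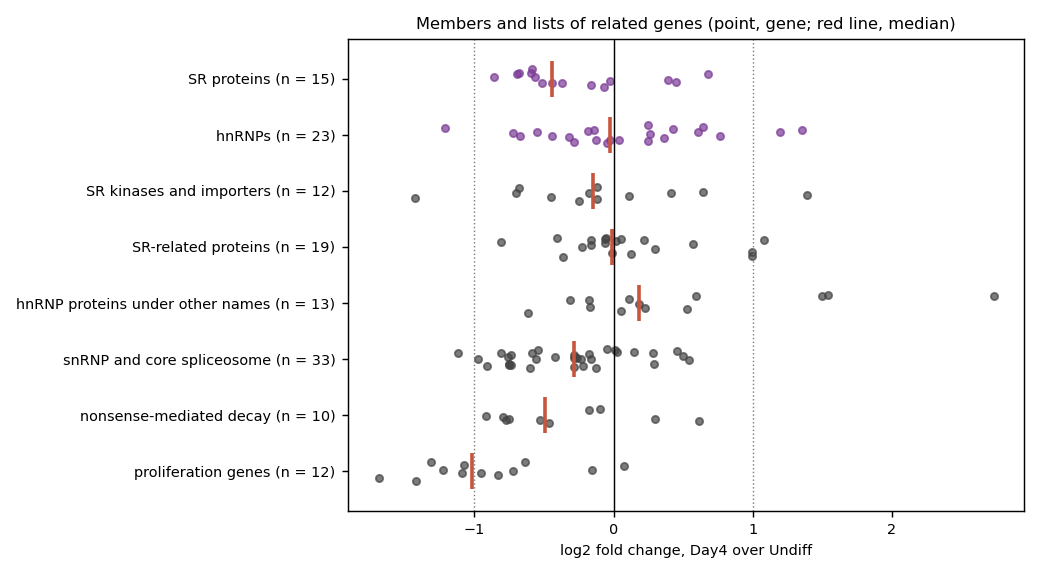
The log2 fold change of each gene, Day4 over Undiff, in the 2 families and in 6 lists of related genes, with the number of genes on the left, the median as a red line and dotted lines at 1 in either direction. The medians were -0.44 for the SR proteins, -0.03 for the hnRNPs and -1.02 for the proliferation genes.

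Since Day4 cells were given RA, the promoters of the members were searched for AGGTCA, the half-site bound by RA receptors. RefSeq windows of 300 bases around the start of a gene (GRCm38.p6), most of each window lying before the start, matched 36 of the 38 members, with 50 windows. On either strand, AGGTCA occurred in 4 of these 50 windows and in 16.3% of all 32851 windows. Direct repeats of it spaced by 5 or by 2 bases, as in RA response elements, occurred in 0 windows of the members and in 3 windows each of all genes. The 4 matches are shown as read on the strand of the gene, with the half-site or its reverse complement in capitals, to let the reader see them beside the changes of their genes.
Srsf9, chr5:115326964-115326993, plus strand, 201 bases before the start: ccccaagcttagTGACCTaccagcttagga
Hnrnph1, chr11:50376790-50376819, plus strand, 188 bases before the start: aatttctagggtAGGTCAgtcagattcgga
Pcbp1, chr6:86526269-86526298, minus strand, 97 bases before the start: ggcgcagtcttgTGACCTaaaaaagccggt
Srsf3, chr17:29032606-29032635, plus strand, 42 bases before the start: ggtgatctggtcAGGTCAtgtggcagagca
Of these 4 genes, Srsf9 and Hnrnph1 rose and Pcbp1 and Srsf3 did not pass the test. As GENCODE places the first exon, the stretch of Pcbp1 lies wholly inside it. That of Srsf3 reaches into it only with its end, past the half-site. A match in letters is a description of the window only. Other short promoter motifs were counted in the same way, on either strand. GGGCGG, the GC box, was present in 82.0% of the windows of members against 35.7% of all windows. CCGGAAG was present in 26.0% against 8.86%, and CCAAT in 46.0% against 37.4% (31.6% of the windows of SR proteins). The shares over windows of abundant genes were not computed, so these values do not show a trait particular to the members. Windows of the same gene can overlap, so that a site can count more than once. TATAAA, the TATA box, was present in 4 of the 50 windows against 13.6% of all windows, and ATGCAAAT, the octamer, in 0 against 1.74%. CACGTG, the E-box, occurred in 0 of 19 windows of SR proteins and in 6 of 31 windows of hnRNPs, against 7.15% of all windows, and the difference between the families was not tested.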

How the data were processed

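Adapter trimming by the authors used cutadapt, alignment to mm10 used STAR 2.4.2a, and uniquely aligned fragments were assigned to genes with HTSeq. The deposited values are raw counts per gene symbol, without normalization. The 38 members were found by symbol, and the members and lists were chosen with earlier results of these data known. Counts of the 4 libraries (32099074 to 47730944 per library) were scaled by TMM factors and tested in edgeR 4.0.16 (R 4.3.3) by glmQLFit and glmQLFTest, on the 19891 genes with a count, with Benjamini-Hochberg adjustment over all of them. Calls, log2 fold changes and standard errors (size over the square root of F) come from this fit. In it the spread of each gene was set entirely by its abundance (an infinite prior df), so the standard errors do not reflect how far the replicates of that gene lie apart. The adjusted p-values printed are therefore those of the same test after filterByExpr (15893 genes, prior df 23.6), which gave the same call for 38 of 38 members. Filtering also changed the scaling and shifted the log2 fold changes by a median of -0.03. For the members that did not pass, it gave -0.10 (Srsf3), -0.06 (Srsf5), -0.08 (Hnrnpa2b1), 0.005 (Hnrnpk) and -0.06 (Pcbp1). For the other lists, 4 genes (Prpf4b, Acin1, Raly and Sf3b5) changed in the first fit only and Upf2 in the second only. The biological coefficient of variation was 3.66%. Normalized counts are those expected at 1 common effective library size (the geometric mean over libraries), and RPKM uses the counts on genes and the mean length of the principal transcripts in GENCODE. All members were accounted for, with full values for the DEGs, the 3 highest per length in each family over all libraries and the related pairs furthest apart, and in the other lists for the DEGs with the highest and lowest change (Ptbp1, Ptbp2 and Rbmx were added with values known). The test was also run on simulated counts in which all genes had the same dispersion, which cannot tell whether its spread fits these data. Alternatives were DESeq2 1.42.0 with and without the authors' prior, 3 other scalings, filterByExpr, a replicate block, thinning, a test against a fold of 1.2 and leaving out each library. Same-numbered libraries did not deviate together (r = -0.01 over 16472 genes). The labels name a second TruSeq kit, and which one was used for these libraries was taken from the methods. Fragments on no gene or on several genes were kept out of the test and made up 7.50% to 13.2% and 1.84% to 1.91% of the uniquely aligned ones.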

Additional observations from a re-analysis of the deposited data

How the results depend on the processing

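The counts of members that changed (12 to 14 higher and 18 to 23 lower over all alternatives but the test against a fold of 1.2, which gave 10 and 15) and of DEGs (2 higher and 1 lower throughout) kept their direction. The median of the SR proteins stayed between -0.51 and -0.37. The median of the hnRNPs, near 0, turned to 0.04 with library totals and 0.01 with scaling to Pum2, Sec24d and Copg1, and ranged from -0.0717 to 0.0182 when 1 library was left out. Their share of counts on genes turned from -0.00645 to 0.0446 percentage points with all uniquely aligned fragments as the denominator, and ranged from -0.0332 to 0.0203 when 1 library was left out, while that of the SR proteins moved from -0.130 to -0.0899. No member that changed was reversed under any alternative. Of those that did not pass, Hnrnpk turned to -0.0013 with DESeq2 and with its size factors, Srsf5 to 0.0421, Pcbp1 to 0.0396 and Hnrnpa2b1 to 0.0172 with library totals, and Srsf5 to 0.0091 and Pcbp1 to 0.0064 with the Pum2, Sec24d and Copg1 scaling. When 1 library was left out, Hnrnpk ranged from -0.0086 to 0.0534, Srsf5 from -0.0992 to 0.0525 and Pcbp1 from -0.0717 to 0.0182. Srsf3 passed with DESeq2 (-0.11) and Hnrnpk with library totals (0.10), where Hnrnpd and Pcbp2 no longer passed, and thinning lost Srsf12 and Hnrnpd. Against a fold of 1.2, 4 kinases and importers fell, 4 SR-related proteins rose and 3 fell, 5 hnRNPs of other names rose and 1 fell, 3 core spliceosome genes rose and 14 fell, and 1 decay gene rose. The kinases and importers that rose numbered 2 with DESeq2 and 2 to 4 when 1 library was left out, and the proliferation genes that rose 1 with library totals or the Pum2, Sec24d and Copg1 scaling and 0 to 1 when 1 library was left out. The cause of these changes was not tested. With the replicate block, 13 members rose and 20 fell, and all 38 kept their call. The scalings shifted the median of all genes by -0.04 to 0.07. With 2 libraries per state, no permutation test can pass 0.05, and counts per gene do not resolve isoforms.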
